A study of Mus musculus with 194 samples.

Results

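The measurements below concern 10 receptor genes of T-cells, chosen by symbol from the 23420 gene names of the expression table. Of these, 5 encode inhibitory receptors (Ctla4, Pdcd1, Lag3, Havcr2 and Cd160) and 5 encode costimulatory receptors (Cd28, Icos, Cd27, Tnfrsf4 and Tnfrsf9). All 10 were in the table. They were read in 97 CD8+ T-cells and, for contrast, in 81 cells of the leukemia line L1210. This left out 9 CD8+ and 7 L1210 libraries, of which the labels mark 4 and 2 as doublets, the others having fewer than 1000 genes above 0 TPM. TPM are estimated transcript abundances, scaled by transcript length and to the same total in every cell, so that levels of different genes can be set side by side.

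The CD8+ T-cells were primary cells isolated from the spleen of C57BL/6J mice of both sexes, unmodified, whose age the labels do not give. They were activated for 30 h with plate-bound antibody against CD3 (5 μg per ml) and soluble antibody against CD28 (2 μg per ml), loaded singly into a microfluidic trap array and grown there with interleukin 2 at 100 U per ml for a pair of divisions before release. L1210 is an established mouse lymphocytic leukemia line of the strain DBA subline 212, which divides without stimulation and received neither antibodies nor interleukin 2. Every cell gave 1 library by Smart-Seq2, which amplifies cDNA of a single cell and keeps no strand. By the labels, which name each cell's sister and cousins, the CD8+ T-cells belonged to 34 lineages, each taken to have 1 founder. Of these lineages, 7 held a single retained cell, with no relative among the cells used. The 34 gave 43 pairs of sisters, 72 of cousins and 4541 of unrelated cells. The L1210 cells belonged to 26 lineages, with 38, 62 and 3140 such pairs. No mouse and no culture is named for any cell. Each cell type was therefore taken as 1 sample, lineages were the replicates within a cell type, and p values cover the variation between lineages only. As the cells of a lineage come from 1 mouse, lineage and mouse cannot be told apart.

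The read depth is unknown from TPM, and the number of genes above 0 TPM stands in for it. It ranged from 2639 to 10905 with a median of 6862 in CD8+ T-cells and from 1610 to 10454 with a median of 8402 in L1210 cells. The cell types matched their labels, though not in every marker. Transcripts of Cd3e, part of the antigen receptor, were found in all 97 CD8+ T-cells (median 571 TPM) but in 0 of 81 L1210 cells. Those of the coreceptor gene Cd8a were found in 94 of the CD8+ T-cells, and in 10 L1210 cells at no more than 9.74 TPM. Cd8b1 and Cd3d were found in 23 and 8 L1210 cells, at up to 31.75 and 9.22 TPM. The B-cell genes Pax5 and Vpreb1 were at 0 in every CD8+ T-cell and above 0 in 77 and 78 L1210 cells. Their companions Cd79b and Cd79a were found in 47 and 10 CD8+ T-cells, at up to 283 and 27.9 TPM. Cd4 transcripts were found in 2 CD8+ T-cells, at no more than 1.81 TPM.

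A T-cell responds when its antigen receptor is engaged together with a costimulatory receptor. CD28, present on resting cells, binds CD80 and CD86, and its relative ICOS appears after activation, while CD27, OX40 (the product of Tnfrsf4) and 4-1BB (the product of Tnfrsf9) belong to the tumour necrosis factor receptor superfamily and signal through TRAF adaptors. Activation also induces receptors that restrain the response. CTLA-4 competes with CD28 for the same ligands, PD-1 (the product of Pdcd1) recruits phosphatases to the antigen receptor, LAG-3 is a CD4-like receptor that binds class II molecules, TIM-3 (the product of Havcr2) is found on strongly activated and on exhausted cells, and CD160 is bound by the herpesvirus entry mediator, to which both inhibitory and activating signals have been ascribed.

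The genes lie on 5 chromosomes of the build GRCm38. On the plus strand of chromosome 1, Cd28 (60716800 to 60773359), Ctla4 (60887000 to 60915832) and Icos (60977927 to 61000320) are neighbours, with 113640 bases between the first 2 and 62094 bases between Ctla4 and Icos. Pdcd1 lies farther along the same chromosome on the minus strand (94038305 to 94052553). Lag3 (124904361 to 124911705) and Cd27 (125232622 to 125237010) are both on the minus strand of chromosome 6, where Lag3 lies 16139 bases from Cd4. Tnfrsf9 (150914562 to 150946102) and Tnfrsf4 (156013843 to 156016612) are on the plus strand of chromosome 4, the latter 9551 bases from Tnfrsf18, which encodes the related receptor GITR. Havcr2 is on the plus strand of chromosome 11 (46454935 to 46481255) and Cd160 on the minus strand of chromosome 3 (96798763 to 96829351). Cd160, Cd27 and Tnfrsf9 overlap a gene on the opposite strand (Pdzk1, Vamp1 and Camta1), and without strand the reads of the overlap cannot be told apart. Over CD8+ T-cells these partners had Pearson correlations of 0.01, 0.12 and 0.08 with their receptor gene.

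The 250 bases before the start site are shown for 4 of the genes, Ctla4, Pdcd1, Havcr2 and, at its second annotated start, Tnfrsf9. Those of Cd160, Cd27 and Tnfrsf4 and of the first start of Tnfrsf9 are not shown. Capitals mark matches on either strand to the core letters of NFAT sites (GGAAA) and AP-1 sites (TGANTCA), factors that act downstream of the antigen receptor. The sequences are those of RefSeq on GRCm38.p6, in the direction of transcription, and lie at chr1:60908775-60909024 (plus strand), chr1:94052554-94052803 (minus strand), chr11:46454681-46454930 (plus strand) and chr4:150927749-150927998 (plus strand).
Ctla4: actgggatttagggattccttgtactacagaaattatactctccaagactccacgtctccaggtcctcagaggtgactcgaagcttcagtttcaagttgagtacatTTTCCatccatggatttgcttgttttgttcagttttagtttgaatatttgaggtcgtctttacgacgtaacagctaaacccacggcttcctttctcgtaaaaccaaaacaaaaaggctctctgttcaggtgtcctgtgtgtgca
Pdcd1: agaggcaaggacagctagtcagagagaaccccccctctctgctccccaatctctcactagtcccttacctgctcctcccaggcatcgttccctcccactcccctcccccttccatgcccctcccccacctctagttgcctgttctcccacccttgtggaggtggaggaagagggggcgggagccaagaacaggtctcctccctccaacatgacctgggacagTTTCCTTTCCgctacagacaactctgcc
Havcr2: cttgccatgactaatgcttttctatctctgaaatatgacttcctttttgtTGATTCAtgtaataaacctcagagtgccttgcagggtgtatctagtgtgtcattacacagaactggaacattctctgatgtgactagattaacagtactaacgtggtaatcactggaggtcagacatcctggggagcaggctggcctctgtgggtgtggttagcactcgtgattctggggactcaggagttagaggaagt
Tnfrsf9: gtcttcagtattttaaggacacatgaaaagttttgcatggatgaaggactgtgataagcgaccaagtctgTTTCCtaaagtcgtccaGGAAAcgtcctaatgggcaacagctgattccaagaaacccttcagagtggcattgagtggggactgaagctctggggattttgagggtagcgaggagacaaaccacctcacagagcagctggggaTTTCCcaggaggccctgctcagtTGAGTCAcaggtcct
Promoters were at hand for 7 of the 10 genes, 9 start sites in all. The letters GGAAA stood in 7 of these 9 and in 55.6% of 32851 mouse promoters of the same length, and TGANTCA in 2 of 9 (Havcr2 and the second start of Tnfrsf9) and in 6.75% of all. The letters TATAAA of the TATA box (12.4% of all promoters) stood in 0 of the 9. No match overlapped another. These are matches of letters, and the TPM, given per gene, do not tell which start was used.

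The first comparison asks which of the receptors CD8+ T-cells expressed, in how many cells and at which level. All 10 were found, but in very unlike shares of the cells. Cd27, Cd28 and Icos were above 0 TPM in 84 to 91 of the 97 cells, Ctla4, Cd160 and Tnfrsf9 in 61 to 67, and Tnfrsf4, Lag3, Pdcd1 and Havcr2 in 14 to 35. A receptor listed at 0 in a cell may have been present and not captured, so that these shares depend on capture as well as on expression. Intervals are exact binomial (Clopper-Pearson, 95%) and cover counting error only.

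Among the costimulatory receptors, Cd27 was the most frequent and the highest. It was above 0 TPM in 91 cells (93.8%, 87.02 to 97.7%), between 0 and 475 TPM with a median of 74.9 TPM, and at 100 TPM or more in 36 cells. Cd28 was above 0 TPM in 85 cells (87.6%, 79.4 to 93.4%), with a median of 23.9 and a maximum of 141 TPM. Icos was found in 84 cells (86.6%, 78.2 to 92.7%), with a median of 21.9 and a maximum of 137 TPM. On the scale ln(TPM + 1) the cells of a lineage had a median SD of 1.28 for Cd28, 0.92 for Icos and 0.74 for Cd27. No lineage of more than 1 cell lacked any of the 3 altogether. The receptors 4-1BB and OX40, which are induced by activation, were scarcer but reached higher. Tnfrsf9 was above 0 TPM in 61 cells (62.9%, 52.5 to 72.5%), with a median of 12.6 TPM and a maximum of 1024 TPM, the highest value of any of the 10 genes. Tnfrsf4 was above 0 TPM in 35 cells (36.1%, 26.6 to 46.5%), with a median of 0 and a maximum of 507.5 TPM. Tnfrsf9 was at 100 TPM or more in 17 cells and Tnfrsf4 in 7.

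Among the inhibitory receptors, Ctla4 was the most frequent. It was above 0 TPM in 67 cells (69.1%, 58.9 to 78.1%), with a median of 16.7 and a maximum of 420 TPM, and at 100 TPM or more in 22 cells. Cd160 followed with 62 cells (63.9%, 53.5 to 73.4%), a median of 7.95 and a maximum of 309 TPM, but with only 3 cells at 100 TPM or more. The receptors most used as markers of exhausted cells were less frequent. Lag3 was above 0 TPM in 35 cells (36.1%, 26.6 to 46.5%) with a maximum of 121 TPM, and Pdcd1 in 33 cells (34.02%, 24.7 to 44.3%) with a maximum of 142 TPM. In the cells that had them, the median was 12.98 TPM for Lag3 and 28.0 TPM for Pdcd1. Havcr2 was the rarest, in 14 cells (14.4%, 8.12 to 23.03%) and at no more than 39.9 TPM, and it did not reach the expression filter used for the tests below.

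Taken per lineage on the scale ln(TPM + 1), the order of the mean levels was Cd27 (3.97 ± 1.04, SD, n = 34 lineages), Icos (2.89 ± 0.85), Cd28 (2.83 ± 0.84), Ctla4 (2.51 ± 1.66), Tnfrsf9 (2.29 ± 1.71), Cd160 (2.19 ± 1.35), Lag3 (1.198 ± 1.48), Tnfrsf4 (1.14 ± 1.38), Pdcd1 (1.05 ± 1.24) and Havcr2 (0.22 ± 0.47). Every pair of neighbours in this order differed by less than the SD of their difference over lineages. The widest gap was that of Cd27 over Icos, 1.08 ± 1.19, with Cd27 higher in 31 of 34 lineages. The SD between lineages was larger for Tnfrsf9 and Ctla4 than for any other member and smaller for Cd28 and Icos than for any member but Havcr2.

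**Figure D1:**
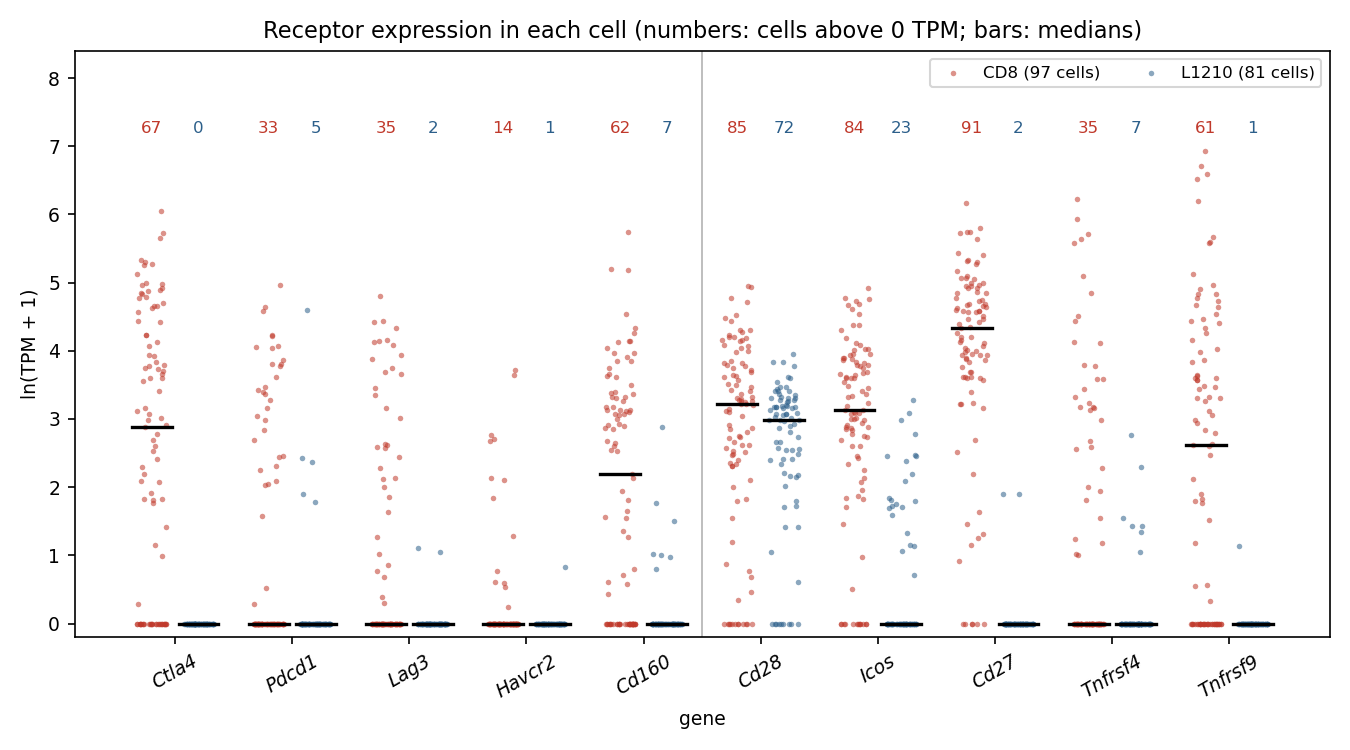
Level of each receptor gene in every cell, on the scale ln(TPM + 1), where each point is 1 cell of the CD8+ T-cells (n = 97) or L1210 cells (n = 81) and the number above each column is the count of cells above 0 TPM. Cd28 alone reaches a like share in both cell types (85 of 97 and 72 of 81), and Tnfrsf9 has the highest single cell, at 1024 TPM.

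The share of expressing cells was set beside that in L1210 cells, a B-lineage leukemia in which T-cell receptors serve as a background. Apart from Cd28 and Icos the receptors were nearly absent there. Ctla4 was above 0 TPM in 0 of 81 L1210 cells, for which the exact interval reaches 4.45% and the limit of 3 counts is 3.70%. Havcr2 and Tnfrsf9 were found in 1 cell each, Lag3 and Cd27 in 2, Pdcd1 in 5, and Cd160 and Tnfrsf4 in 7, and apart from 1 cell with 97.6 TPM of Pdcd1 none of these cells exceeded 16.8 TPM. The cell of 97.6 TPM and a second Pdcd1 cell with 5.69 TPM belonged to the same lineage. Since each cell type is 1 sample, the difference between them has no test.

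Cd28 was the exception. It was above 0 TPM in 72 of 81 L1210 cells (88.9%, 79.95 to 94.8%), with a median of 18.9 and a maximum of 50.8 TPM, against 87.6% and a median of 23.9 TPM in CD8+ T-cells. The share was 1.26 percentage points lower in CD8+ T-cells, and the intervals overlap. Icos lay in between. It was above 0 TPM in 23 L1210 cells (28.4%, 18.9 to 39.5%), with a median of 0 and a maximum of 25.4 TPM. Of the 10 genes, 5 were expressed in a share of CD8+ T-cells at least 50 percentage points higher than in L1210 cells, while this held for 1.34% of the 18611 genes found in any cell, and 3.72% were as much lower. These were Cd27 (91.3 points), Ctla4 (69.1 points), Tnfrsf9 (61.7 points), Icos (58.2 points) and Cd160 (55.3 points). Lag3, Pdcd1, Tnfrsf4 and Havcr2 were higher by 33.6, 27.8, 27.4 and 13.2 points, which their low share in CD8+ T-cells limits. The L1210 cells had the larger median number of detected genes.

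A single CD8+ T-cell had a median of 6 of the 10 receptor genes above 0 TPM, and every count from 1 to 10 occurred. The median was 2 of the 5 inhibitory and 4 of the 5 costimulatory genes. No inhibitory receptor was found in 6 cells and no costimulatory receptor in 1, whereas 37 cells had 3 or more inhibitory receptors and 4 cells all 5. All 10 genes were above 0 TPM in the cells CD8_21, CD8_22, CD8_29 and CD8_102, which come from 3 lineages. At the other end, CD8_34 had only Cd160, at 309 TPM, and CD8_73 only Cd27, at 79.4 TPM. The number of receptors went with the number of detected genes (Pearson's r = 0.64 over 97 cells). The median was 5 in the 48 cells of fewer detected genes and 7 in the other 49. The part of detection in this relation was not tested. In L1210 cells the median was 1 receptor, with a range of 0 to 4, and 67 of 81 cells had no inhibitory receptor.

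Which receptors went together was described by correlation of ln(TPM + 1) over the 97 cells. These cells share lineages, and detected genes move with several receptors (r = 0.34 for Pdcd1, 0.33 for Cd27 and 0.29 for Tnfrsf9, against 0.03 for Ctla4), so that the values are a description and carry no p. Of the 45 pairs of genes, 36 had a positive and 9 a negative correlation, with a median of 0.098 and a range of -0.32 to 0.41. After regression of every gene on detected genes the median was 0.049. The median was 0.103 over the 10 pairs of inhibitory receptors, 0.12 over the pairs of costimulatory receptors and 0.081 over the 25 pairs between the groups. The medians were thus low in each group, and 7 pairs went beyond 0.3 in either direction.

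**Figure D2:**
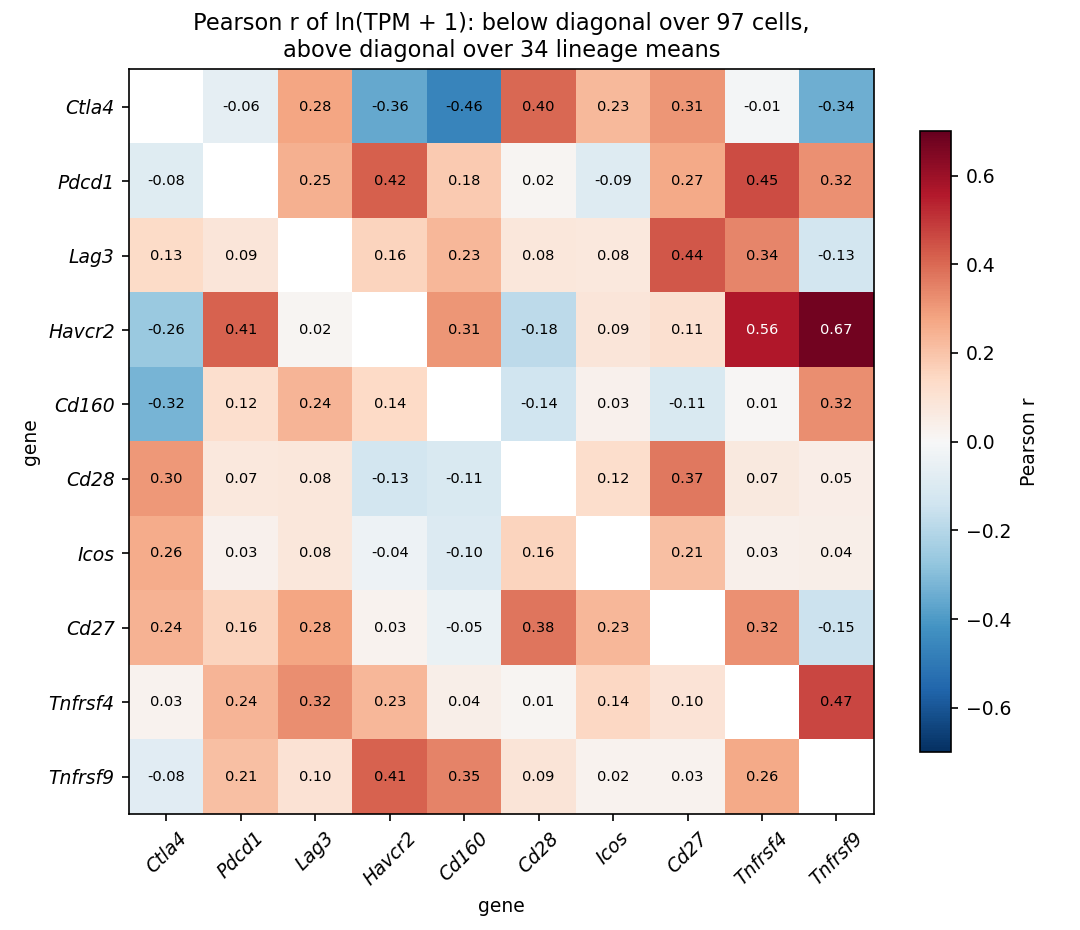
Pearson correlation of ln(TPM + 1) between each pair of the 10 receptor genes, over 97 CD8+ T-cells below the diagonal and over 34 lineage means above it, with the colour scale giving r. Havcr2 stands out with Pdcd1 and Tnfrsf9 (0.41 over cells for both), and Ctla4 with Cd160 (-0.32).

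Havcr2 took part in the 2 strongest of these relations. Of the 14 cells with Havcr2, 11 also had Pdcd1 (78.6%), against 26.5% of the cells without Havcr2, and the correlation was 0.41. It stayed between 0.35 and 0.44 when each lineage was left out in turn, and was 0.34 within lineages. In 1 lineage the sisters CD8_29 and CD8_31 had 13.5 and 14.9 TPM of Havcr2 with 42.5 and 43.8 TPM of Pdcd1, while their cousins CD8_30 and CD8_32 had no Havcr2 and 0 and 3.85 TPM of Pdcd1. The relation of these genes is thus seen between cells of the same lineage. Havcr2 and Tnfrsf9 also had a correlation of 0.41, with Tnfrsf9 in 13 of the 14 Havcr2 cells (92.9%) and in 57.8% of the others. This relation was one between lineages, with 0.67 over lineage means and 0.04 within lineages.

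Ctla4 and Cd160 went in opposite directions. The correlation was -0.32 over cells, between -0.37 and -0.28 without single lineages, and -0.34 with residuals on detected genes. Cd160 was found in 38 of the 67 cells with Ctla4 (56.7%) and in 24 of the 30 cells without it. The contrast lay between lineages, with -0.46 over lineage means, and not within them, where the correlation was 0.15. The 4 cells of the lineage of CD8_55 had 60.8, 283, 125 and 420 TPM of Ctla4 and no Cd160. The 4 cells of CD8_59 had 142, 118, 135 and 308 TPM of Ctla4 and again no Cd160. Both lineages were thus high in Ctla4 in all cells and empty of Cd160. In the lineage of CD8_33 the 4 cells had 16.99, 309, 37.7 and 62 TPM of Cd160, with Ctla4 at 0, 0, 2.15 and 12.5 TPM. The 4 cells of CD8_1 had Cd160 at 4.18 to 35.96 TPM and Ctla4 at 0.

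The remaining pairs above 0.3 were costimulatory or mixed. Cd28 and Cd27 had a correlation of 0.38 over cells and within lineages alike, Cd160 and Tnfrsf9 one of 0.35 (0.31 within lineages), Lag3 and Tnfrsf4 one of 0.32 (0.09 within lineages) and Ctla4 and Cd28, the receptors of the same ligands, one of 0.30 (0.19 within lineages). All 35 cells with Lag3 also had Cd27, which was found in 90.3% of the cells without Lag3 as well. Tnfrsf4 and Tnfrsf9, both of chromosome 4, had 0.26 over cells, 0.47 over lineage means and -0.07 within lineages, and the value over cells was between 0.13 and 0.31 without single lineages.

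**Figure D3:**
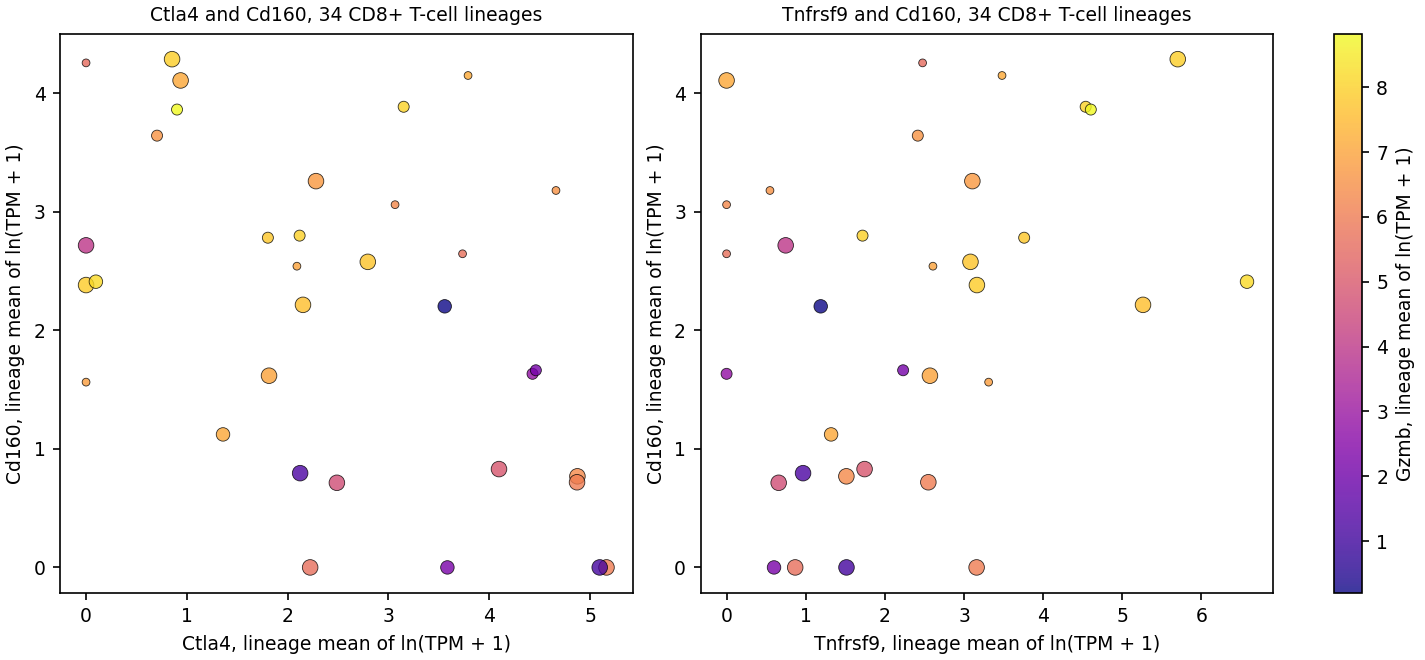
Lineage means of ln(TPM + 1) of Cd160 (vertical) against Ctla4 (left) and Tnfrsf9 (right), each point being 1 of 34 CD8+ T-cell lineages, larger for more cells and coloured by its mean ln(TPM + 1) of Gzmb. Lineages high in Ctla4 tend to be low in Cd160 (r = -0.46), and lineages high in Tnfrsf9 tend to be higher in Cd160 (r = 0.32).

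The genes nearest to each receptor by correlation over cells were taken from the 9997 genes that passed the expression filter. Ctla4 was closest to Itgae, the alpha E integrin chain CD103 (r = 0.56), and to Ccr7, the receptor that guides cells to lymph nodes (0.49), while its correlation with Gzmb, the cytotoxic protease granzyme B, was -0.28. Cd160, Tnfrsf9 and Havcr2 had positive correlations with Gzmb (0.37, 0.48 and 0.32). Tnfrsf9 was closest to Malt1, a protease of the pathway from antigen receptor to NF-kB (0.61), and to the metallothionein Mt1 (0.53), and Havcr2 to the tubulin Tubb6 (0.56) and to Gp49a (0.51), which belongs to the immunoglobulin-like receptor family of Lilrb4. Cd160 was closest to the pseudogene Vmn2r-ps129 (0.50) and to Lifr, the receptor of leukemia inhibitory factor (0.48). Cd27 was closest to S1pr4, a sphingosine 1-phosphate receptor (0.56), and to Erp29 (0.55), and Cd28 to Il16 (0.46) and Uba1 (0.42). Icos was closest to Ccnh (0.51) and Hadha (0.50), Pdcd1 to Slc5a3 (0.54) and Zdhhc5 (0.49), Lag3 to Hsh2d (0.45) and Acpp (0.44), and Tnfrsf4 to Chmp4b (0.45) and the chemokine Ccl4 (0.44), which was found in 15 cells. These correlations are the highest of many and were not tested.

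The second comparison asks whether related cells were more alike in a receptor than unrelated cells. No receptor passed an adjusted p of 0.05. Related cells were closer in 19 of 27 lineages for Lag3, in 18 each for Ctla4, Cd160, Tnfrsf9 and Cd27, in 17 for Icos, in 15 each for Pdcd1 and Tnfrsf4 and in 13 for Cd28. A lineage with the gene at 0 TPM in every cell counts as closer by that alone. This held for 12 of the closer lineages for Lag3, 12 for Pdcd1, 7 for Tnfrsf4, 4 for Cd160 and 2 each for Ctla4 and Tnfrsf9. For each of the 27 lineages with pairs, the absolute difference in ln(TPM + 1), averaged over its sister and cousin pairs, was set beside that of the same cells to the cells of all other lineages, and tested 2-sided by flipping the signs of the lineages at random (sign-flip permutation), with Benjamini-Hochberg adjustment over all 9997 genes. Of the 9 receptors tested, 0 were called, against 2.20% of all genes. An unadjusted p under 0.05 was reached by 4 of the 9, all more alike, and by 15.1% of all genes.

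Lag3 had the lowest p. Related cells differed by 0.908 and unrelated cells by 1.46, a difference of -0.55 ± 0.91 (SD, n = 27 lineages), lower in 19 of them (permutation test, p = 0.0032, adjusted p = 0.0901). Ctla4 differed by 1.59 in related and 2.32 in unrelated cells, or -0.73 ± 1.27 (SD), lower in 18 of 27 (permutation test, p = 0.0063, adjusted p = 0.125). For Tnfrsf9 the values were 1.73 and 2.46, or -0.73 ± 1.34 (SD), lower in 18 of 27 (permutation test, p = 0.0076, adjusted p = 0.139). Each of these differences was smaller than the spread between lineages. Cd160 differed by 1.42 and 1.95, or -0.53 ± 1.09 (SD), lower in 18 of 27 (permutation test, p = 0.0190, adjusted p = 0.222). Pdcd1 had -0.36 ± 0.93, Tnfrsf4 -0.40 ± 1.24, Cd27 -0.29 ± 0.91 and Icos -0.16 ± 0.62, with adjusted p of 0.341, 0.456, 0.458 and 0.569 (permutation test). Cd28 had 1.64 in related and 1.62 in unrelated cells, a difference of 0.02 ± 0.88, lower in 13 of 27 lineages (permutation test, adjusted p = 0.983). Averaged as a percentage within lineages, the difference of Cd28 was -5.13%, of the other sign. It was -46.9% for Lag3, -37.04% for Pdcd1, -29.1% for Ctla4, -26.6% for Tnfrsf4, -25.9% for Cd160, -25.6% for Tnfrsf9, -23.8% for Cd27 and -14.4% for Icos, beside a median of -16.1% over all genes tested. A lineage with a gene at 0 TPM in every cell enters with the lowest percentage possible. Such lineages were 12 of the 27 for Lag3 and for Pdcd1, 7 for Tnfrsf4, 4 for Cd160 and 2 each for Ctla4 and Tnfrsf9. The percentages of these genes thus mix shared absence with likeness of level, as do the medians of gene lists given below.

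**Figure D4:**
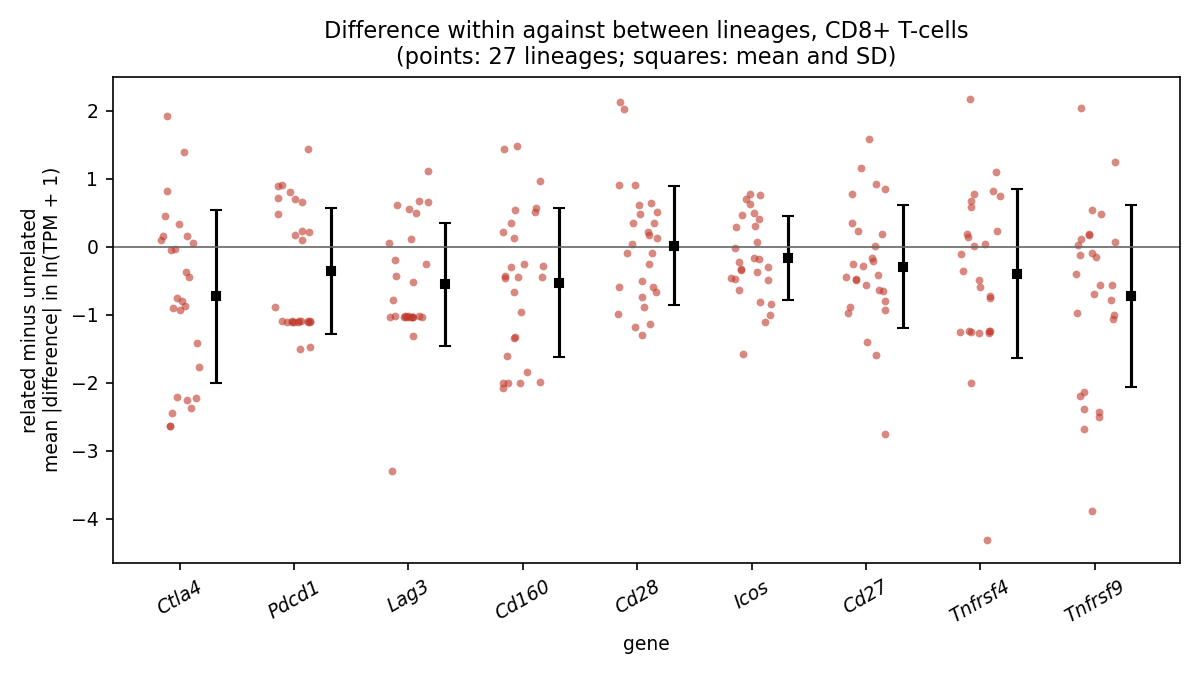
Difference in ln(TPM + 1) between related and unrelated CD8+ T-cells for the 9 receptor genes that passed the expression filter, where each point is 1 of 27 lineages, the square is the mean with its SD, and values below 0 mark lineages whose cells were more alike than unrelated cells. Single lineages range from -4.32 for Tnfrsf4 to 2.17 for the same gene, and the points of every receptor lie on both sides of 0. Lineages with the gene at 0 TPM in every cell are among the points below 0.

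The calls depended on the test and on the pairs and lineages used. The Mann-Whitney U-test on single pairs, which counts each cell many times, called Cd160 (adjusted p = 1.91e-06), Ctla4 (2.08e-06) and Tnfrsf9 (0.00571) but not Lag3 (0.0624), among 8.80% of all genes. The F-test of limma for differences between lineages, which takes cells as replicates of a lineage, called 6 of the 9 receptors, with adjusted p of 1.13e-05 for Ctla4, 0.000113 for Tnfrsf9, 0.000366 for Cd160, 0.00735 for Tnfrsf4, 0.0077 for Lag3 and 0.0441 for Pdcd1, among 12.9% of all genes. It did not call Cd27, Cd28 or Icos (adjusted p = 0.24, 0.398 and 0.474). Lag3 passed the sign-flip permutation test over sister pairs alone (adjusted p = 0.0346), with 0.686 in sisters and 1.41 in unrelated cells. It was lower in 23 of 27 lineages, while neither sister had Lag3 in 24 of the 43 pairs. Lag3 also passed the permutation test over all pairs without the lineage of CD8_5 (adjusted p = 0.0417). Without other single lineages its adjusted p reached 0.171. The ranges were 0.0605 to 0.210 for Ctla4, 0.0717 to 0.289 for Tnfrsf9 and 0.140 to 0.345 for Cd160.

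The mice were of both sexes, and lineages of different sex necessarily come from different mice. Of the 97 cells, 39 had Xist and no Y-linked transcript, 38 a Y-linked transcript and no Xist, 15 both and 5 neither. These classes rest on detection in single cells, and having both or neither names no sex. Restricting to a class leaves fewer unrelated cells to compare with, while related pairs were not restricted. The part of the mouse in the comparison below was not tested. With unrelated cells restricted to those alike in this respect, a comparison chosen after seeing the data, 26 genes were called in place of 220 (219 more and 1 less alike). Under it Ctla4 still had 1.59 against 2.29 (permutation test, p = 0.0119, adjusted p = 0.299), Lag3 0.908 against 1.37 (p = 0.0137, adjusted p = 0.323) and Tnfrsf9 1.73 against 2.35 (p = 0.025, adjusted p = 0.409), whereas Cd160 had 1.42 against 1.79 (p = 0.0625, adjusted p = 0.558).

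The cells of single lineages show these differences in TPM. Ctla4 ranged from a lineage mean of 0 through a median of 2.22 to 5.16 on the ln scale. It was above 0 TPM in all cells of 11 of the 27 lineages and in no cell of 2, those of CD8_1 and CD8_25. The 4 cells of CD8_95 had 145, 126, 129 and 119 TPM, and those of CD8_87 had 109, 103.92, 192 and 132 TPM. In both lineages the 4 relatives had similar levels. Others were mixed, such as that of CD8_71, with 35.5, 199, 0 and 0 TPM.

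Tnfrsf9 was highest in the lineage of CD8_92, whose 3 cells had 1024, 730 and 491 TPM, together with 266, 507.5 and 281 TPM of Tnfrsf4. The same cells of this 1 lineage had Ctla4 at 0, 0 and 0.34 TPM. Over all 97 cells Ctla4 had a correlation of -0.08 with Tnfrsf9 and 0.03 with Tnfrsf4. Within lineages these were 0.26 and 0.17, and over lineage means -0.34 and -0.01. The 4 cells of CD8_83 had 268, 676, 816 and 52.7 TPM of Tnfrsf9, and those of CD8_29 had 288, 125, 264 and 142 TPM. All 4 cells of CD8_33 had Tnfrsf9 at 0. Both genes also had high values in single cells of a lineage. Tnfrsf4 had 378 TPM in CD8_38 and 22.03, 0 and 0 TPM in its relatives, and 301 TPM in CD8_66 beside 0 in its 3 relatives, and Tnfrsf9 had 85.6 TPM in CD8_49 and 0 in its sister CD8_50.

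Lag3 and Pdcd1 were often missing from a whole lineage, and Cd160 was often shared by one. Lag3 and Pdcd1 were each at 0 in every cell of 12 of the 27 lineages and above 0 in every cell of 3. Cd160 was at 0 in all cells of 4 and above 0 in all cells of 13. The more frequent genes Cd27, Icos and Cd28 were above 0 in all cells of 21, 16 and 15 lineages. Such counts depend on the share of expressing cells and were not tested. A lineage in which a gene is at 0 throughout counts as fully alike in it. The highest Lag3 mean was that of the sisters CD8_36 and CD8_42, with 81.9 and 121 TPM. CD8_92 had the highest Pdcd1 value, 142 TPM, and CD8_93 had 96.6 TPM, while their relative CD8_94 had 0.34 TPM.

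**Figure D5:**
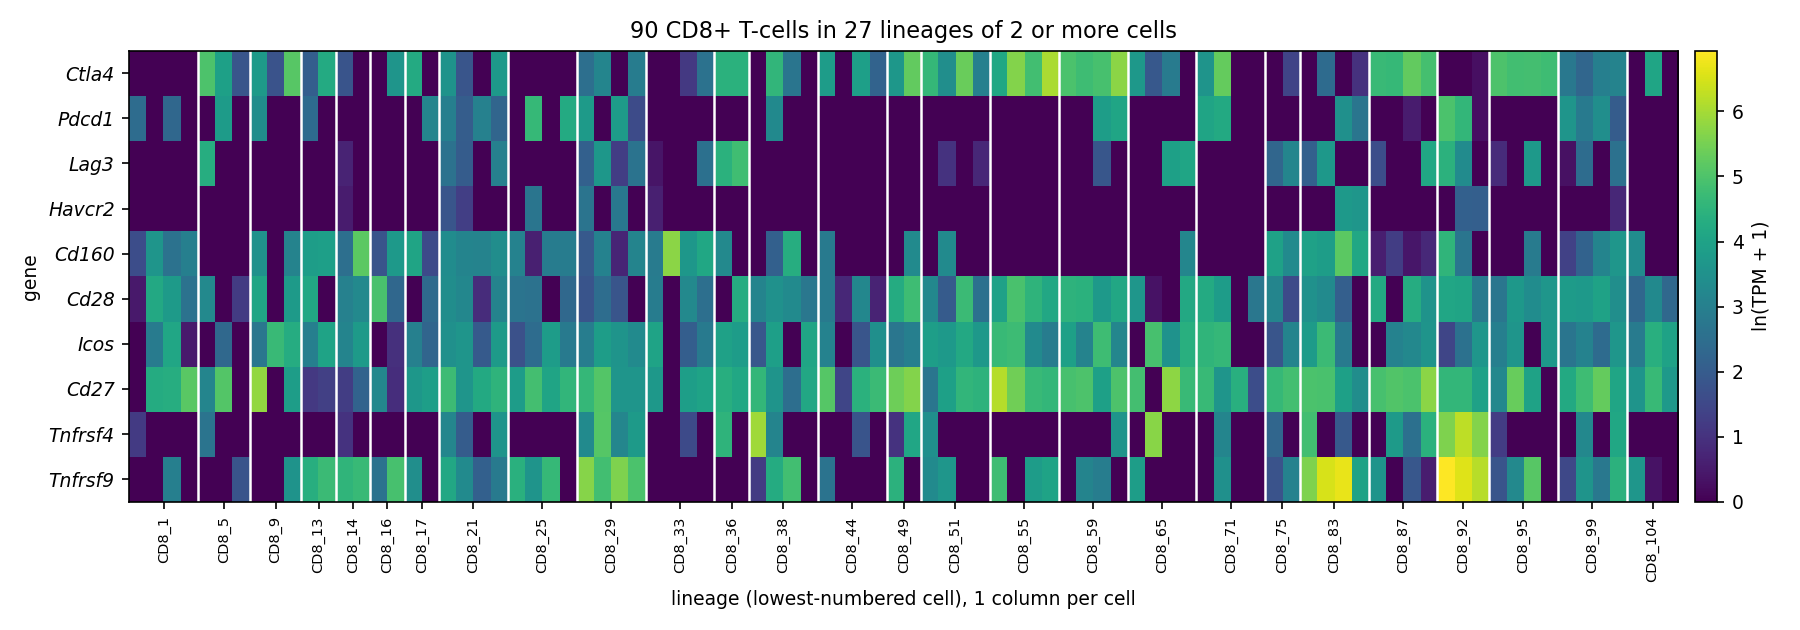
Level of each receptor gene (rows) as ln(TPM + 1) in the 90 CD8+ T-cells of the 27 lineages with more than 1 cell (1 column per cell, white lines between lineages, brighter for higher). Cd27, Cd28 and Icos are present in every lineage, Ctla4 is at 0 throughout 2 lineages, and Havcr2 is at 0 throughout 19.

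Presence or absence alone was compared over pairs. Exactly 1 cell of the pair had Cd160 in 20.9% of the 43 sister pairs, 20.8% of the 72 cousin pairs and 47.3% of unrelated pairs. For Lag3 the shares were 20.9, 40.3 and 46.95%, for Pdcd1 20.9, 36.1 and 45.7%, for Ctla4 32.6, 30.6 and 43.5% and for Tnfrsf9 37.2, 37.5 and 47.4%. These shares were not tested. Tnfrsf4 had 44.2, 38.9 and 46.8%, and Havcr2 9.30, 27.8 and 25.1%. Cd28, Icos and Cd27 had 27.9, 23.3 and 13.95% in sisters and 21.8, 23.4 and 11.7% in unrelated pairs. Havcr2 was in both sisters of 4 pairs and in both cousins of 0 of 72 pairs.

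Sisters and cousins were compared directly in the 20 lineages with both. No receptor was called, and all had an adjusted p of 1. The lowest unadjusted p was that of Lag3, with 0.828 in sisters and 1.28 in cousins (permutation test, p = 0.208). Of all genes, 0.0200% were called, and 5.23% had an unadjusted p under 0.05. In L1210 cells only Cd28 and Icos passed the expression filter. Cd28 differed by 1.12 in related and 1.14 in unrelated cells, -0.02 ± 0.59 (SD, n = 24 lineages), lower in 14 (permutation test, p = 0.858, adjusted p = 0.993), and Icos by 0.771 and 0.863, lower in 13 (permutation test, p = 0.433, adjusted p = 0.818), beside 0.323% of 10536 genes called and 14.2% with an unadjusted p under 0.05. The relative difference of these genes was not measurably unlike that in CD8+ T-cells (permutation of the cell type over lineages, p = 0.577 for Cd28 and 0.391 for Icos), and 0 of 9160 genes were called (0%), with 6.41% at an unadjusted p under 0.05.

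The third comparison asks whether the receptors changed with time since division, which was recorded for 94 CD8+ T-cells between 0.5 and 9.48 h. No change was detected. In a limma fit of lineage means on the mean time of the lineage (n = 31 lineages), 0 of 9 receptors were called, while 0.0900% of the 9997 genes were, and 12.9% had an unadjusted p under 0.05. The steepest slope was that of Ctla4, -0.19 ± 0.12 per hour on the ln scale (SE, adjusted p = 0.485), with a mean of 2.80 ± 1.74 in the 15 earlier and 1.99 ± 1.55 in the 16 later lineages (SD). Icos had -0.10 ± 0.07 and Cd27 -0.07 ± 0.08 per hour (adjusted p = 0.559 and 0.751). The other slopes were between -0.05 and 0.03 per hour, with adjusted p of 0.850 to 0.964.

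Cells of another type among the CD8+ T-cells were looked for by markers. The lineage of CD8_55, highest in Ctla4, held 2 of 6 cells with Foxp3, the factor of regulatory T-cells, which also express Ctla4 strongly. The 6 cells had 11.5 to 37.6 TPM of Foxp3 and 261 to 817 TPM of Cd8a, and Cd4 was at 0 in all of them. Ctla4 was above 0 TPM in 5 of the 6 (median 104.36 TPM) and in 62 of the 91 cells without Foxp3, with a median of 13.7 and a maximum of 308 TPM. The summed TPM of 5 CD4 and regulatory T-cell markers was 12.1 to 88.04 in the 6 cells and 0 to 175 in the others. Much of this sum is Ikzf4, found in 66 of the 97 cells at up to 175 TPM. Zbtb7b was found in 6 cells and Cd40lg in 0. The part of the 6 Foxp3 cells in the Ctla4 values was not tested, and without them 118 genes in place of 220 were called for likeness. Of 5 natural killer cell markers Ncr1 was at 0 in every cell, and Klre1 was found in 16 cells at up to 144 TPM. The others were found in 1 or 2 cells each. The sum of these markers was 0 to 144 TPM, at 0 in 81 cells. The sums of B-cell and of myeloid markers were 0 in 48 and 74 cells and at most 283 and 83.5 TPM. Their most frequent members were Cd79b, in 47 cells at up to 283 TPM, and Cd68, in 12 cells at up to 82.8 TPM.

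The ligands of the 10 receptors were looked up in the same cells from a list of 13 genes. Fgl1, a ligand of LAG-3, and Cd70, the ligand of CD27, were at 0 in all cells of both types. Lgals9 and Hmgb1, which encode ligands of TIM-3, were found in 94 and all 97 CD8+ T-cells with medians of 259 and 695 TPM. Icosl, the ligand of ICOS, was above 0 TPM in 8 CD8+ T-cells and in 67 of 81 L1210 cells. Of the 7 ligands that passed the filter, 0 were called for likeness, with a median of -31.9%, and 2 had an unadjusted p under 0.05 (permutation test). Over all genes 2.20% were called and 15.1% had an unadjusted p under 0.05. Rare genes reach low percentages through lineages at 0 TPM throughout. Cd86 had -52.8% with 0.545 in related and 0.578 in unrelated cells, and Tnfsf9 -32.9% with 0.898 and 0.852. From 21 genes of signalling close to the receptors 20 passed the filter and 1 was called. This was Traf1, an adaptor of 4-1BB and related receptors, with 1.32 in related and 1.87 in unrelated cells, lower in 20 of 27 lineages (permutation test, adjusted p = 0.0459), and the median of the list was -20.1%, beside 2.20% of all genes called and a median of -16.1%.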

How the data were processed

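RNA of single cells released from a microfluidic trap array was sequenced after Smart-Seq2. The authors estimated expression with RSEM (version 1.2.3, with TopHat2 also named in the submitters' processing notes) on UCSC genes of mm10 and deposited it as TPM for 23420 gene names in 194 libraries, each summing to 1000000. Of the names, 27 look like dates, and 2 names stand in more than 1 row. Depth is not kept in TPM.

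Doublets and cells with fewer than 1000 genes above 0 TPM were left out here, TPM were taken as ln(TPM + 1), and genes were tested when they exceeded 1 on this scale in over 10% of a type's cells (9997 in CD8+ T-cells, 10536 in L1210 cells). Lineages came from the sister and cousin labels, with 2 inconsistent cousin labels replaced. Likeness was tested by 2-sided sign-flip permutation over lineages (100000 resamples), cell types by permutation over lineages and time by limma with trend on lineage means, each with Benjamini-Hochberg adjustment over all genes and a threshold of 0.05. The tests were checked on simulated data. Alternatives were the pseudocount, gene and cell filters, definition of an expressing cell, detected genes, scaling without Rn45s, time, relation, correlation measure and test. The 10 receptors and the gene lists were chosen with earlier results of these data known. Named genes were the 10 receptors, the 2 genes of highest correlation with each, at most 4 called genes or 2 of the highest share per list, and Cd3e, Cd8a, Cd4, Foxp3 and Gzmb as checks. Others named for a value were picked after it was seen. Coordinates are from GENCODE vM21 on GRCm38. Tests were run in scipy 1.17.1 with numpy 2.4.6 and pandas 2.3.3 (Python 3.11.15) and in limma 3.58.1 (R 4.3.3), and figures were drawn with matplotlib 3.10.9.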

Additional observations from a re-analysis of the deposited data

How the results depend on the processing

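TPM keep no depth, the labels name no mouse, and Havcr2 was too rare to test, which limits all of the above. The number of genes called for likeness in CD8+ T-cells was 220 and became 423 without a gene filter, 880 by the Mann-Whitney U-test on pairs and 1289 by the limma F-test over cells. Settings chosen after seeing the data gave 118 without the Foxp3 cells, 26 with unrelated cells alike in Xist and Y-linked transcripts, and 131 to 237 without single lineages, the lowest without that of CD8_83. In L1210 cells 34 genes became 53 with a pseudocount of 0.1, 121 with 10, 134 where 4000 detected genes were required and 19 after regression on detected genes. The 9 genes that changed with time became 5 with a pseudocount of 0.1, 3 without a gene filter, 25 with at least 4000 detected genes, 17 with detected genes as a covariate and 0 by Spearman correlation with a permutation test. The comparisons of sisters with cousins and of the cell types stayed within 1.5 times of their counts in the settings tried. No receptor that changed sign was called. Cd28 likeness changed sign to -0.0484 with a pseudocount of 10, -0.00812 with residuals on detected genes and between -0.0513 and 0.0729 over single lineages left out in CD8+ T-cells, and to 0.00778 with a pseudocount of 0.1 and 0.0143 with at least 2000 detected genes in L1210 cells, and Ctla4 to 0.0411 between sisters and cousins with at least 4000. Slopes per hour changed sign to -0.0222 for Cd160 with a pseudocount of 0.1, 0.0128 for Cd27 with at least 4000 detected genes and 0.0221 for Tnfrsf9 with the covariate, and Spearman's rho was -0.0176 for Pdcd1 and 0.0758 for Lag3. Over the other settings, single lineages apart, the adjusted p for likeness ranged from 0.0077 to 0.323 for Lag3, 2.08e-06 to 0.299 for Ctla4, 1.91e-06 to 0.558 for Cd160 and 0.000113 to 0.409 for Tnfrsf9. Of 135 correlations recomputed, 29 moved by more than their error, mostly those of lineage means. With 10 TPM as the limit for an expressing cell, Ctla4 was in 55.7%, Cd160 in 49.5%, Lag3 in 22.7% and Havcr2 in 5.15% of CD8+ T-cells. No paired analysis was possible because replicate numbers only number the cells, and the comparison of expression between the cell types has no test.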

Other observations

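Other receptors of the same kind were looked up from lists of 16 further inhibitory and 14 further costimulatory genes. Of the inhibitory ones 13 were in the table and 9 passed the filter for CD8+ T-cells. Of these 0 were called for likeness and 2 had an unadjusted p under 0.05, both more alike. Over all genes tested the shares were 2.20% and 15.1%. The median difference of related from unrelated cells was -23.2%, beside -16.1% over all genes tested. The most frequent were Cd96 (88 of 97 CD8+ T-cells, median 53.5 TPM, and 0 of 81 L1210 cells) and 4632428N05Rik, the gene of the receptor VISTA (83 CD8+ T-cells, median 29.8 TPM, and 20 L1210 cells). Of the costimulatory ones 13 passed the filter, 0 were called, 2 had an unadjusted p under 0.05, and the median was -20.3%. Cd2, an adhesion receptor of T-cells, was found in 94 CD8+ T-cells (median 184 TPM), and Tnfrsf18, next to Tnfrsf4 on chromosome 4, in 90 cells with a median of 129 TPM, while Tnfrsf4 itself was found in 35.

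Of 18 transcription factors linked to receptor expression 12 passed the filter, and 1 was called, beside 2.20% of all genes. This was Tcf7, a factor of naive and memory-like T-cells, with 1.16 in related and 1.65 in unrelated cells, lower in 22 of 27 lineages (permutation test, adjusted p = 0.0357), and the median of the list was -24.9%. Of 10 activation markers 9 passed the filter and 1 was called, Gzmb, with 1.32 and 2.88, lower in 24 of 27 lineages (permutation test, adjusted p = 0.0050), and the median was -30.2%. Of 9 CD8 T-cell markers all passed the filter and 2 were called, Cd8b1 and Cd8a (both with an adjusted p of 0.0050), with a median of -25.1%. The counts called in each of these lists stand beside 2.20% of all genes called for likeness. No gene of these lists was called for a change with time since division, beside 0.0900% of all genes. None of 5 erythroid and platelet markers passed the filter, and 1 gene each of the CD4 and regulatory T-cell, natural killer cell and myeloid lists and 2 of the B-cell list did, none of them called.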
